A study of Homo sapiens and Mus musculus with 24 samples.

Results

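The hepatocyte transcription factor mRNAs described here are those of 8 genes, HNF4A, FOXA1, FOXA2, FOXA3, CEBPA, ONECUT1, NR1H4 and NR5A2, chosen from a list of liver transcription factors and found by Ensembl gene among the 58381 human genes of the files. All 8 averaged 0.5 CPM or more in nonirradiated HepG2 cells, where CPM is a count scaled to the total of its library, and 5 of the 8 reached this level in nonirradiated HEK293 cells. RNA was sequenced from HepG2, a human liver carcinoma line, and from HEK293 (so named in the labels, and HEK293T where the study's methods describe cell culture), a line from human embryonic kidney, without irradiation and after UV irradiation of the living cells, in 3 replicates for each of these 4 groups. The labels name no genetic change or other agent in any group, and RNA of all groups was purified with TRIzol after the lysates were heated, followed by removal of ribosomal RNA. In this assay, UPA-seq, UV light joins RNA to the proteins that touch it, and RNA joined to protein leaves the aqueous phase upon phenol-chloroform extraction, so that the counts describe RNA that was both recovered from the aqueous phase and copied by reverse transcriptase. A crosslink can also hinder reverse transcription, and these counts cannot tell apart the loss at either step. Each cell type is represented by a single established line, and the study calls its replicates biological triplicates. The labels do not say whether they were separate cultures, and the p-values measure the spread between these samples.

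HNF4A, NR1H4 (the bile acid receptor FXR) and NR5A2 (LRH-1) belong to the nuclear receptors, FOXA1, FOXA2 and FOXA3 are forkhead proteins that can bind DNA in closed chromatin, CEBPA is a basic leucine zipper protein, and ONECUT1 (HNF6) binds DNA through a cut domain and a homeodomain. In the liver these factors bind together at many enhancers and promoters, regulate one another's genes, and drive genes for plasma proteins, bile acid handling and intermediary metabolism. They are best known for their protein products, whereas the measurements below concern the counts of each mRNA in RNA of the aqueous phase.

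The FOXA genes are the closest relatives among the 8, and the likeness of their coding sequences in hg38 limits how far reads can be told apart between them. The longest run of identical coding bases was 48 bases between FOXA1 and FOXA2, and 29 bases for FOXA1 with FOXA3 and for FOXA2 with FOXA3. A read wholly inside such a run could be placed on either gene, and the counts of the 3 genes are uncertain to that extent. How many reads this concerns, and whether they were counted at all, was not tested.

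The depth of the human libraries ranged from 36573473 to 53511592 assigned counts in HepG2 and from 9444707 to 11188033 in HEK293. Cell line, sequencer and the version of the counting program go together and cannot be told apart. All 7 hepatocyte markers on the list (ALB, AFP, APOA1, TTR, SERPINA1, KRT8 and KRT18) reached 0.5 CPM in nonirradiated HepG2, where their summed level was 20700 to 28000 CPM, against 2 of 7 and 304 to 375 CPM in nonirradiated HEK293, in which ALB, AFP, APOA1 and TTR had at most 3 counts over the 3 libraries. Among markers of other cells in nonirradiated HepG2, KRT7 and CFTR (cholangiocytes), COL1A2, COL3A1, DCN and LUM (stellate cells and fibroblasts) and CD163 (macrophages) had at most 3 counts in all. Of the lists as a whole, 2 of 4 cholangiocyte markers, 2 of 7 stellate and fibroblast markers, 3 of 5 endothelial and 3 of 5 leukocyte markers reached 0.5 CPM there, with summed levels of 205 to 243, 55.7 to 58.7, 12.2 to 16.2 and 1800 to 2630 CPM. The leukocyte sum was mainly LYZ (2290 ± 446 CPM, SD, n = 3). In HEK293, 7 of 8 kidney and neuronal markers reached 0.5 CPM (330.0 to 643 CPM in sum). UV irradiation changed the bulk of the libraries: the TMM factors, which align the middle of the genes, were 1.54 to 1.59 in nonirradiated and 0.619 to 0.655 in irradiated HepG2, and 1.25 to 1.37 and 0.698 to 0.808 in HEK293. With library sizes alone the median gene moved by -1.38 (log2) in HepG2 and -0.84 in HEK293 upon UV irradiation, so a change given below is relative to the bulk of genes unless said otherwise.

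To ask how specific the 8 mRNAs were to the liver line, their levels in nonirradiated cells were compared per length, as RPKM over the union of each gene's exons. In HepG2, HNF4A stood highest (37.3 ± 0.666 RPKM, SD, n = 3), above 95.1% of the 13735 mRNAs tested there. CEBPA followed at 18.6 ± 2.06 and FOXA2 at 15.1 ± 1.5 RPKM, with overlapping ranges. NR1H4 (12 ± 1.23), FOXA1 (10.8 ± 2.08) and FOXA3 (10.3 ± 0.939) formed a run in which each overlapped the next, ONECUT1 came below them at 6.06 ± 0.931, and NR5A2 was far lower at 0.238 ± 0.067 RPKM, above only 4.77% of mRNAs. In HEK293 the order was different. CEBPA led at 18.0 ± 2.05 RPKM, above 84.4% of the 14424 mRNAs tested, followed by FOXA1 at 5.81 ± 0.269. NR5A2 (1.31 ± 0.421) and FOXA2 (1.05 ± 0.128) overlapped, FOXA3 stood at 0.668 ± 0.160, and ONECUT1, HNF4A and NR1H4 were all near 0, at 0.108 ± 0.0711, 0.0239 ± 0.0166 and 0.0202 ± 0.0350 RPKM.

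**Figure D1:**
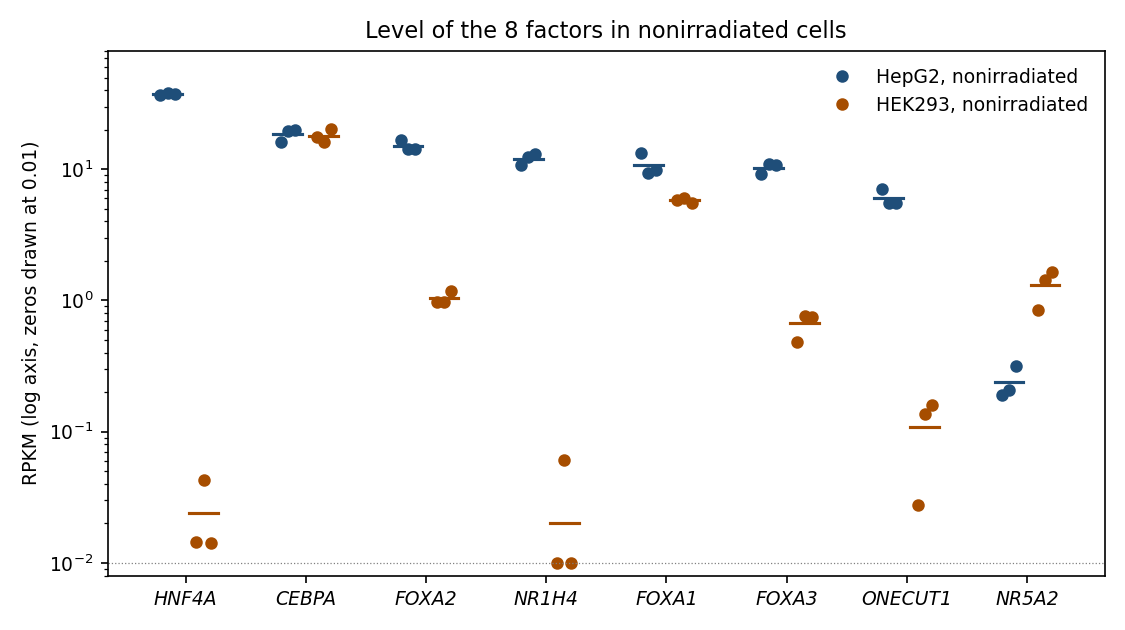
Level of each of the 8 genes in nonirradiated HepG2 (blue) and HEK293 (brown), in RPKM on a log axis, with genes on the x axis in the order of their HepG2 level. Points are the 3 samples of a group, bars their mean, and values of 0 are drawn at 0.01. CEBPA had nearly the same RPKM in both lines (18.6 and 18.0), while HNF4A, NR1H4 and ONECUT1 were near 0 in HEK293 and NR5A2 was higher in HEK293.

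HNF4A, which hepatocyte differentiation requires, had 9797, 14855 and 11357 counts in the nonirradiated HepG2 libraries and 1, 3 and 1 in those of HEK293. The CPM ratio of the pooled counts was 1570, with an exact (Clopper-Pearson) 95% interval of 671 to 4820. NR1H4, which senses bile acids, had 1351, 2298 and 1877 counts in HepG2 and 0, 2 and 0 in HEK293, a ratio of 601 with an interval of 166 to 4960. ONECUT1, which acts in biliary and hepatic development, had 1004, 1132 and 887 counts against 1, 5 and 6, a ratio of 54.8 (31.3 to 106). HEK293 replicate 2 held both NR1H4 counts and 3 of the 5 HNF4A counts. Without it HEK293 had 0 NR1H4 counts. Set against 3 counts over the 2 libraries left, NR1H4 was 267-fold higher in HepG2, and the lower 95% limit from 0 counts was 217. The ratio of HNF4A became 2610 (723 to 21600). Without HEK293 replicate 1 or 3 the ratios were lower than with all samples, at 403 and 398 for NR1H4 and 1310 and 1300 for HNF4A. These 3 genes entered the comparison through HepG2 alone, so a higher mean there was fixed by the filter. That their HepG2 and HEK293 samples did not overlap is therefore no separate result. These intervals cover counting error only.

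The other 5 genes were above the limit of 0.5 CPM in both lines. In the edgeR quasi-likelihood test 4 of them were called higher in HepG2 and 1 lower, where 37.6% of the 23830 genes tested were called higher and 38.1% lower (35.3% and 42.0% of mRNAs). FOXA3 had 736, 1279 and 974 counts in HepG2 and 10, 16 and 16 in the shallower HEK293 libraries, and was 20.8-fold higher in HepG2 (log2 4.38 ± 0.20 SE, adjusted p = 6.59e-09). FOXA2 was 19.6-fold higher (log2 4.29 ± 0.17, adjusted p = 2.15e-09), from 1600, 1986 and 1534 counts against 24, 24 and 30. FOXA1, which HEK293 also expressed (221, 229 and 212 counts), was 2.53-fold higher (log2 1.34 ± 0.16, adjusted p = 1.90e-05). The 3 forkhead genes thus differed between the lines by unequal amounts, FOXA1 the least. CEBPA was 1.40-fold higher with TMM scaling (log2 0.49 ± 0.13, adjusted p = 0.00647) and not called with library sizes alone (log2 0.04, adjusted p = 0.792), where the median gene moved by -0.45. NR5A2, a receptor that acts in bile acid synthesis and in early development, was 4.03-fold lower in HepG2 (log2 -2.01 ± 0.28, adjusted p = 5.25e-05), from 53, 84 and 99 counts against 60, 103 and 121 at the lower depth of HEK293. In these bulk samples fewer cells with an mRNA and less of it per cell cannot be told apart.

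The comparison of irradiated with nonirradiated cells asks how the counts of each mRNA in aqueous-phase RNA changed upon UV crosslinking. In HepG2 the 8 mRNAs fell apart into groups. FOXA3, CEBPA, FOXA2 and NR1H4 rose relative to the bulk, by 2.90-, 2.31-, 2.28- and 1.55-fold, although with library sizes alone CEBPA, FOXA2 and NR1H4 turned to log2 -0.10, -0.12 and -0.68 and FOXA3 stayed above 0 at 0.23. ONECUT1, NR5A2 and FOXA1 fell relative to the bulk, by 1.71-, 1.70- and 1.42-fold, and also fell with library sizes alone (log2 -2.07, -2.07 and -1.80). HNF4A was not called. The edgeR quasi-likelihood test thus called 4 of 8 higher and 3 of 8 lower, where 38.1% of the 20117 genes tested were called higher and 40.7% lower (45.9% and 34.2% of mRNAs), so that a call by itself sets none of them apart. With library sizes alone 1 of the 8 was called higher and 5 lower.

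Per sample, in CPM scaled with TMM within HepG2, FOXA3 stood at 13.1, 15 and 14.8 in nonirradiated cells and at 42.6, 40.9 and 41.0 after UV (log2 1.54 ± 0.08 SE, adjusted p = 4.25e-07). FOXA3, with the shortest coding sequence of the 3 forkhead genes (1053 bases), had the highest log2 of the 8, above 88.7% of the 13735 mRNAs tested. CEBPA, which restrains proliferation and drives metabolic genes, went from 27.6, 32.3 and 33.1 to 73.6, 70.7 and 71.2 (log2 1.21 ± 0.08, adjusted p = 1.74e-06). FOXA2 went from 28.4, 23.3 and 23.3 to 57.3, 56.8 and 56.5 (log2 1.19 ± 0.09, adjusted p = 3.12e-06). In all 3 genes every irradiated sample lay above every nonirradiated one, and the irradiated samples differed from each other by less than the nonirradiated ones did. NR1H4 stood at 24, 27 and 28.5 before and 41.3, 39.2 and 42.4 after UV (log2 0.63 ± 0.08, adjusted p = 1.06e-04), again without overlap.

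FOXA1, the third forkhead gene, stood at 34.2, 23.6 and 24.7 in nonirradiated and at 21.1, 18.8 and 18.2 in irradiated HepG2 cells (log2 -0.50 ± 0.14, adjusted p = 0.00982). Nonirradiated replicate 1 was high for FOXA1, and without it the log2 was -0.39 (adjusted p = 4.38e-08). That edgeR fit lowered the adjusted p of the other called genes too, as for FOXA2 (6.93e-32 in place of 3.12e-06). Its small p is thus no sign of a firmer fall of FOXA1. ONECUT1 behaved like FOXA1, with 17.8, 13.3 and 13.5 against 9.59, 7.55 and 8.88 (log2 -0.77 ± 0.14, adjusted p = 8.54e-04). For both genes the groups did not overlap, and nonirradiated replicate 1 was the highest of the 6 samples. NR5A2 rested on few reads, 53, 84 and 99 counts before and 20, 15 and 25 after UV, or 0.941, 0.986 and 1.5 against 0.619, 0.567 and 0.822 in scaled CPM (log2 -0.77 ± 0.29, adjusted p = 0.0347). Its call was lost without nonirradiated replicate 3, UV replicate 1 or UV replicate 2 (adjusted p = 0.136, 0.0991 and 0.104).

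HNF4A had the most reads of the 8, at 174, 174 and 173 scaled CPM in nonirradiated and 183, 179 and 182 in irradiated cells. The HepG2 groups thus did not overlap for any of the 8, called or not. The share of all genes without overlap is not given here, so separation by itself sets none of them apart. Its log2 was 0.06 ± 0.06 (adjusted p = 0.371), with an approximate 95% interval (from the SE) of -0.06 to 0.19, and 46.7% of mRNAs tested had a lower value. The sign of so small a difference turned with the scaling: it was -1.24 with library sizes alone, about 0 with the size factors of DESeq2, and -0.21 (adjusted p = 0.00671) when only genes with at least 10 counts in every sample were used.

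**Figure D2:**
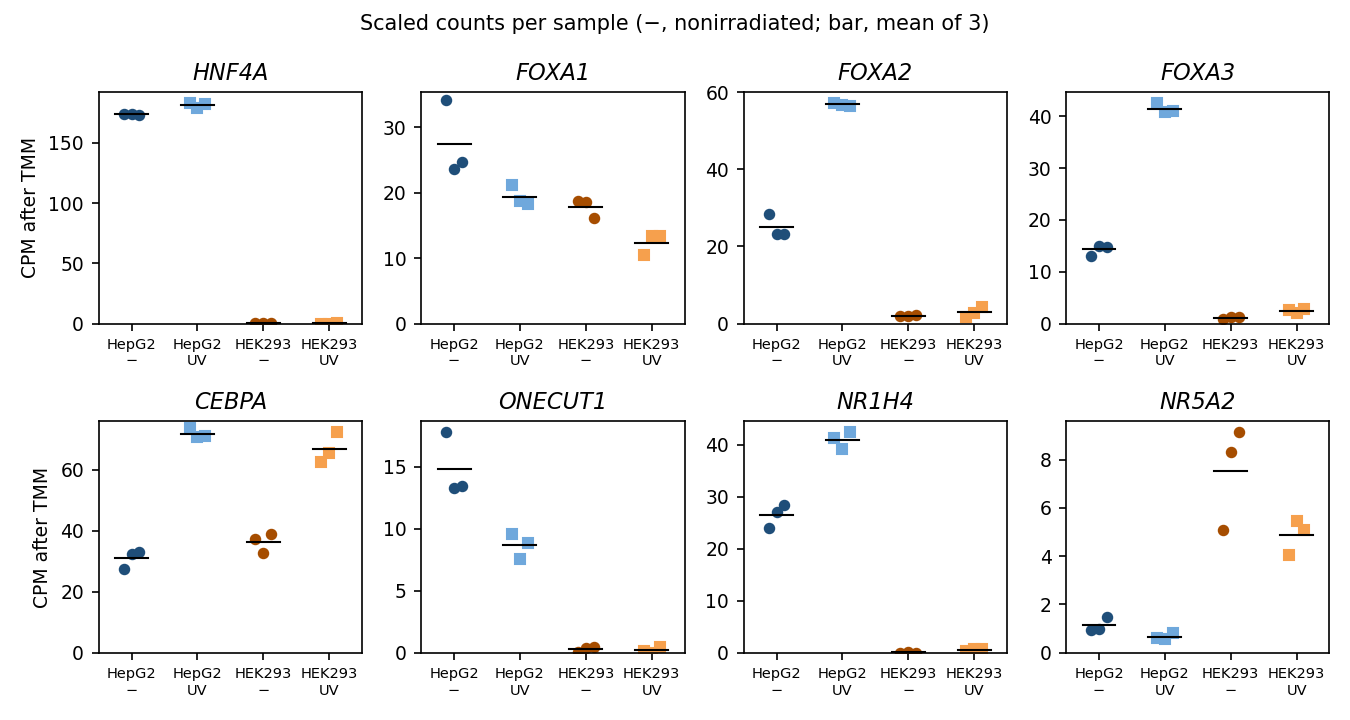
CPM of the 8 genes in each of the 12 human samples, scaled with TMM within each cell line, so that heights are comparable within a line only. Panels are genes, points samples and bars means of 3 samples, with a linear y axis from 0 in each panel. FOXA2, FOXA3, CEBPA, NR1H4 and, by little and without a call, HNF4A lie higher in all 3 irradiated HepG2 samples. FOXA1, ONECUT1 and NR5A2 lie lower in all 3.

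Because the 8 mRNAs share each library, the ratio of 2 of them does not depend on how the libraries are scaled. The pairs below were chosen after their values were seen. FOXA1 had 2.62, 1.57 and 1.67 counts for each FOXA3 count in nonirradiated HepG2 and 0.495, 0.461 and 0.444 after UV, a shift of log2 -2.03 ± 0.24 (SE, n = 3 in each group). In HEK293 the same ratio went from 22.1, 14.3 and 13.2 to 3.89, 6.76 and 4.8, a shift of -1.68 ± 0.33. FOXA1 over FOXA2 in HepG2 went from 1.01 to 1.20 down to 0.322 to 0.368 (log2 -1.68 ± 0.09). In HEK293 that ratio went from 7.07 to 9.54 down to 3.08 to 6.36, a smaller shift (log2 -0.89 ± 0.34) that rests on 11 to 39 FOXA2 counts per library. In these chosen pairs the FOXA mRNAs changed unequally upon UV irradiation, FOXA1 against both others. HNF4A also lost ground in HepG2, from 11.6 to 13.3 counts for each FOXA3 count to 4.30 to 4.44 (log2 -1.48 ± 0.07), and from 5.21 to 6.29 counts for each CEBPA count to 2.49 to 2.56 (log2 -1.15 ± 0.08). In each of these pairs the groups did not overlap, and the two-sided exact permutation p was 0.1, the smallest that 3 against 3 samples allow. Because the pairs were chosen on their values, neither the separation nor this p lends the shifts support. The share of all gene pairs without overlap is not given here.

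**Figure D3:**
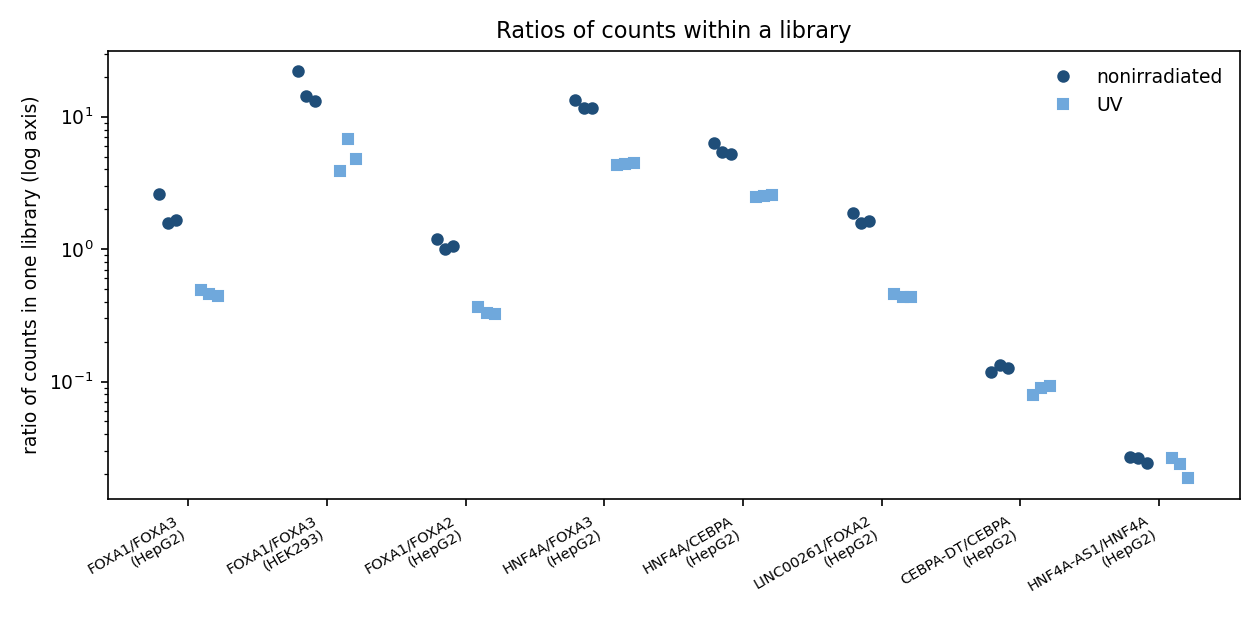
Ratio of the counts of 2 genes in the same library, on a log axis, for nonirradiated (dark circles) and irradiated (light squares) samples of the line in brackets. Each point is 1 of 3 samples. The ratio of FOXA1 to FOXA3 fell to 0.444 to 0.495 in HepG2, and that of HNF4A-AS1 to HNF4A overlapped between the groups.

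In HEK293, 5 of the 8 mRNAs could be tested, HNF4A, NR1H4 and ONECUT1 being below the limit on nonirradiated levels. FOXA3 and CEBPA were called higher relative to the bulk and FOXA1 lower, where 24.2% of the 20472 genes tested were called higher and 26.4% lower (27.9% and 25.8% of mRNAs). CEBPA went from 37.3, 32.7 and 38.8 to 62.4, 65.6 and 72.4 scaled CPM (log2 0.88 ± 0.13, adjusted p = 6.06e-04) and FOXA3 from 0.845, 1.29 and 1.21 to 2.70, 1.97 and 2.76 (log2 1.13 ± 0.31, adjusted p = 0.0133), neither of them called with library sizes alone (log2 0.12 and 0.37). FOXA1 went from 18.7, 18.5 and 16.1 to 10.5, 13.3 and 13.3 (log2 -0.52 ± 0.16, adjusted p = 0.0257). This call held without nonirradiated replicate 3 and was lost in the other 5 fits that left out a sample (adjusted p = 0.0524 to 0.0903). FOXA2, at 2.03, 1.94 and 2.27 before and 1.65, 2.67 and 4.31 after UV, overlapped and was not called (log2 0.49 ± 0.34, adjusted p = 0.257; -0.26 with library sizes alone). UV replicate 3 was the highest, and without it the log2 was 0.10, while without UV replicate 1, the lowest, it was 0.75 (adjusted p = 0.822 and 0.0633).

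NR5A2 in HEK293 stood at 5.07, 8.33 and 9.16 before and 4.05, 5.45 and 5.09 after UV (log2 -0.62 ± 0.26, adjusted p = 0.0733). Replicate 1 was the lowest in both groups. The replicate number was also used as a block, a pairing taken from the data and not from the labels. With this block the NR5A2 log2 of -0.63 ± 0.17 was called (adjusted p = 0.00134), FOXA2 was not (adjusted p = 0.105), and FOXA1, FOXA3 and CEBPA kept their calls. In that fit 35.3% of all genes tested were called lower and 32.7% higher.

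The UV effect itself was compared between the lines as an interaction term for these 5 genes. None was called, with edgeR (adjusted p from 0.28 to 0.821) or with DESeq2 (0.259 to 0.816), and none had an unadjusted p under 0.05 with either, where 4.85% of the 16759 genes tested were called lower in HepG2 and 3.1% higher (4.69% and 3.6% of mRNAs). With the replicate block, set by number in both lines, 1443 genes (8.61%) were called lower and 2092 (12.5%) higher in place of 812 and 520. None of the 5 was among them, although 1 had an unadjusted p under 0.05. The difference, HepG2 minus HEK293, was 0.58 for FOXA2 with an interval of -0.03 to 1.18, 0.30 for FOXA3 (-0.21 to 0.81), 0.23 for CEBPA (-0.08 to 0.53), -0.09 for FOXA1 (-0.51 to 0.33) and -0.24 for NR5A2 (-1.02 to 0.54). For FOXA2 the difference was 0.996 without HEK293 UV replicate 3 (adjusted p = 0.0583) and 0.33 without HEK293 UV replicate 1. The intervals leave room for differences of over 2-fold for FOXA2 and NR5A2, so equal effects are not shown.

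**Figure D4:**
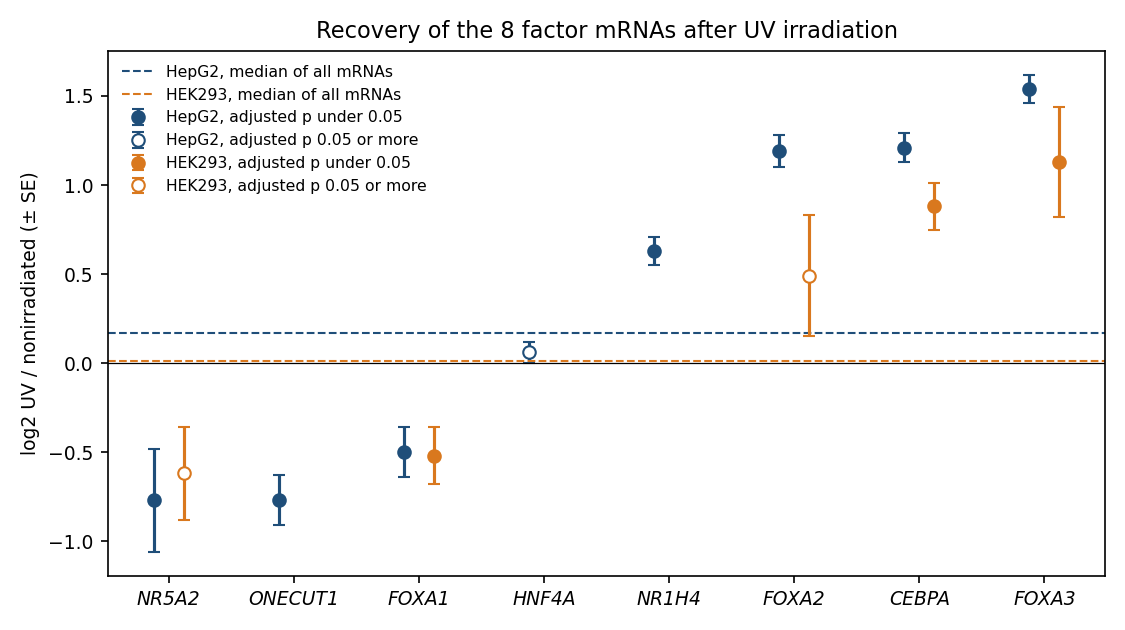
The log2 ratio of irradiated to nonirradiated cells with TMM scaling, for HepG2 (blue, 8 genes) and HEK293 (orange, 5 genes), with error bars of 1 SE from edgeR's quasi-likelihood fit of 3 against 3 samples. Filled points have an adjusted p under 0.05, and dashed lines are the medians of all mRNAs tested (0.17 in HepG2 and 0.01 in HEK293). FOXA3, CEBPA and FOXA2 had log2 values of 1.54, 1.21 and 1.19 in HepG2, of which CEBPA and FOXA2 turned below 0 with library sizes alone, and FOXA1 had -0.50 in HepG2 and -0.52 in HEK293.

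The 8 mRNAs differ widely in structure, and their 3′ UTRs run from 739 bases in FOXA3 to 3205 bases in NR5A2 (MANE Select transcripts of GENCODE 44). Long 3′ UTRs offer room for regulatory elements, among them the pentamer AUUUA, the core of AU-rich elements that RNA-binding proteins recognise. The letters AUUUA, counted on the sense strand with overlaps allowed, occurred 0 times in the 3′ UTR of FOXA3, 1 time in CEBPA, 2 times each in FOXA2, NR1H4 and HNF4A, 7 times in FOXA1, 9 times in NR5A2 and 11 times in ONECUT1. For scale, 71.6% of the 13205 mRNAs with features held at least 1 AUUUA, with a median of 2. The 30 bases of the 3′ UTR richest in AUUUA (the first such stretch where several tie) are shown for NR5A2 and ONECUT1, which fell in HepG2, and, for contrast, for FOXA2, which did not, with AUUUA in capitals and written 5′ to 3′ as RNA. In hg38 they lie at chr1:200174324-200174353 on the plus strand (NR5A2), chr15:52755336-52755365 on the minus strand (ONECUT1) and chr20:22581260-22581289 on the minus strand (FOXA2).
NR5A2: uaaaaacuugcuuuaaagauauugaAUUUA
ONECUT1: accAUUUAaauggccacccuucaagAUUUA
FOXA2: uuaAUUUAugguuucugcgugcuuuAUUUA
A stretch with as many as 2 pentamers was thus present in FOXA2 too. FOXA3 had no AUUUA to show.

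Across the 8 genes, the HepG2 log2 ran against the number of AUUUA (Spearman's rho -0.98), the length of the 3′ UTR (-0.81), the length of the mRNA (-0.86) and the coding length (-0.71), and with GC content (0.79). In all 7 features were looked at, these values describe 8 genes that share their libraries, and AUUUA and 3′ UTR length went together among the 8 (rho 0.71). The same relations were present across the 13205 mRNAs, at -0.49 for AUUUA, -0.50 for 3′ UTR length, -0.61 for mRNA length and 0.40 for GC content. AUUUA went with 3′ UTR length there too (rho 0.78), and AUUUA per base of 3′ UTR had a weaker relation, at -0.29 over the 12686 mRNAs with at least 100 bases of 3′ UTR and -0.81 over the 8 genes. In 4 groups of about equal size by 3′ UTR length the median log2 of these mRNAs was 1.03, 0.45, -0.10 and -0.65 from the shortest to the longest.

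Against mRNAs whose 3′ UTR was within 20% of their own length, the 8 genes parted again. CEBPA, with 1 AUUUA where such mRNAs had a median of 2, lay above 91.0% of 1736 mRNAs. FOXA3, with 0 against a median of 1, lay above 90.2% of 1353. HNF4A, with 2 AUUUA against a median of 7, lay above 72.3% of 1683. FOXA2 and NR1H4, with 2 AUUUA against a median of 1 in both cases, lay above 82.5% of 1440 and 59.4% of 1498. FOXA1, with 7 against 3, lay above 31.4% of 1861, NR5A2, with 9 against 7, above 33.6% of 1677, and ONECUT1, with 11 against 5, above 28.5% of 1816. The share of these mRNAs with at least 1 AUUUA rose with length, from 65.6% beside FOXA3 to 96.5% beside HNF4A and NR5A2. The matching was on 3′ UTR length alone, and GC content differed among the 8. Of the mRNAs tested, 97.0% had a lower GC content than CEBPA, 84.3% than FOXA3 and 81.2% than FOXA2. That share was 68.4% for HNF4A, 54.9% for FOXA1, 46.1% for ONECUT1 and 17.6% for both NR1H4 and NR5A2. Whether AUUUA bears on the UV effect was not tested. The counted exons, from the older release 28, left out 1936 of the 2502 bases of the 3′ UTR of ONECUT1, the stretch printed above included, and 432 of the 1813 bases in FOXA1, so that reads from there are not in these counts.

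**Figure D5:**
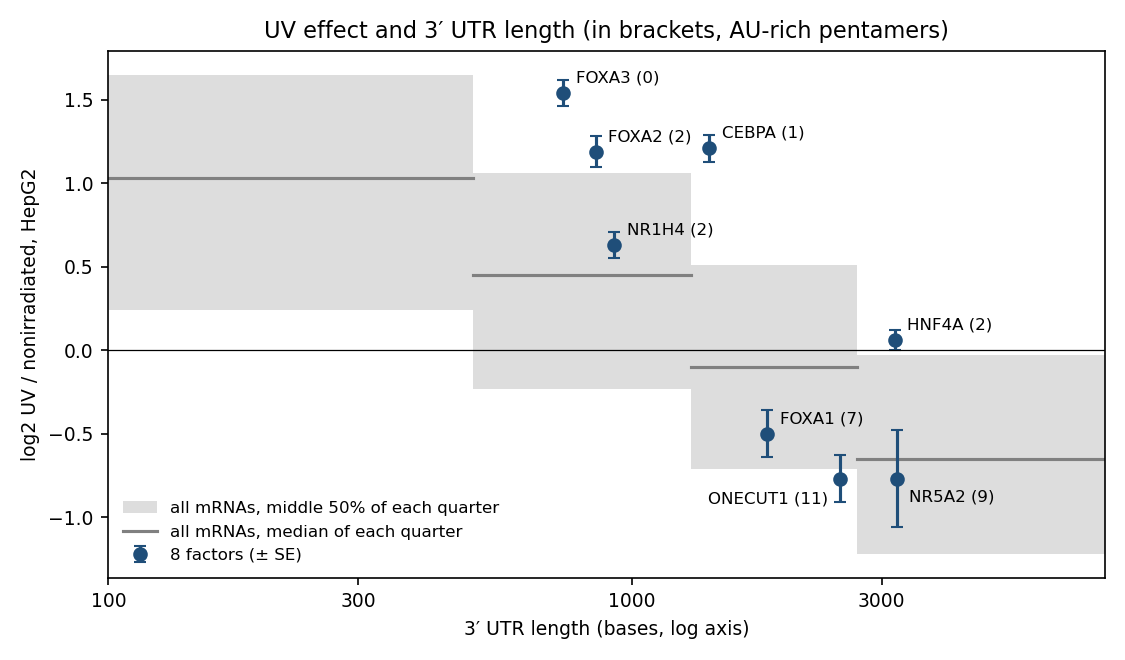
HepG2 log2 ratio of irradiated to nonirradiated cells with TMM scaling against the length of the 3′ UTR in bases on a log axis, for the 8 genes (points, ± 1 SE), with the number of AUUUA pentamers in brackets. Grey lines and boxes are the median and the middle 50% of the mRNAs tested in 4 groups of about equal size by 3′ UTR length, the outer ones cut at the edges of the plot. HNF4A, with 3180 bases and 2 pentamers, lies at 0.06, and NR5A2, with 3205 bases and 9 pentamers, at -0.77.

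The genes beside the 8 bear on what the counts hold, since reads over 2 genes were counted for each. Positions are those of release 28 on hg38. HNF4A is at chr20:44355700-44434596, FOXA3 at chr19:45863989-45873797, NR1H4 at chr12:100473708-100564413 and NR5A2 at chr1:200027602-200177424, all on the plus strand, and ONECUT1 is at chr15:52756989-52791078 on the minus strand. These 5 genes share no exon base with another gene of the annotation. CEBPA, at chr19:33299934-33302564 on the minus strand, is covered on the other strand by the lncRNAs ENSG00000267580 and ENSG00000267727, whose exons lie wholly inside its own and take up 25% and 18.3% of its exon bases. They rose with CEBPA in HepG2 (log2 1.08 ± 0.09 and 1.34 ± 0.13, adjusted p = 6.70e-06 and 1.53e-05), and without strand their reads and those of CEBPA cannot be told apart. FOXA2, at chr20:22581005-22585455 on the minus strand, shares 70 of its 2603 exon bases with ENSG00000283932, and FOXA1, at chr14:37589984-37596059 on the minus strand, shares 16 of 3982 with TTC6 on the other strand. Both neighbours fell in HepG2 (log2 -0.67 ± 0.14 for ENSG00000283932, adjusted p = 0.00167, and -0.62 ± 0.12 for TTC6, adjusted p = 0.00161).

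Neighbouring lncRNAs that share no exon base, chosen after their values were seen, gave a second reading of the same loci. LINC00261, next to FOXA2, had 3013, 3125 and 2485 counts in nonirradiated and 846, 659 and 749 in irradiated HepG2. With TMM scaling its log2 was -0.76 ± 0.14 (edgeR adjusted p = 9.29e-04). For each FOXA2 count it had 1.88, 1.57 and 1.62 counts against 0.457, 0.438 and 0.436 (log2 -1.93 ± 0.08, exact permutation p = 0.1). This shift of the ratio also holds the rise of FOXA2 (log2 1.19). ENSG00000283932, named above, overlaps the span of LINC00261 on the same strand. It had nearly the same counts (3052, 3186 and 2558 against 926, 705 and 810). The falls of LINC00261 and ENSG00000283932 may therefore rest on the same reads and are not separate observations. CEBPA-DT, upstream of CEBPA, rose in HepG2 (log2 0.66 ± 0.14, adjusted p = 0.00178), but less than CEBPA, so that its ratio to CEBPA shifted by log2 -0.54 ± 0.09 (exact permutation p = 0.1). In HEK293 that ratio overlapped between the groups (-0.36 ± 0.34, exact permutation p = 0.4). HNF4A-AS1, transcribed against HNF4A, kept 0.0244 to 0.0270 counts for each HNF4A count before and 0.0186 to 0.0266 after UV, with overlap (log2 -0.19 ± 0.16, exact permutation p = 0.3), whereas ENSG00000233376, another lncRNA on that strand, fell by 2.14 on the log2 scale (adjusted p = 5.81e-05). In HepG2 as a whole the lncRNAs tested had a median log2 of -0.63 against 0.17 for mRNAs.

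Other transcription factors moved in both directions, as genes did at large. Of all genes tested in HepG2, 38.1% were called higher and 40.7% lower (45.9% and 34.2% of mRNAs). Of 22 relatives of the 8 tested in HepG2, 9 were higher and 10 lower, with a median log2 of -0.19 against 0.17 for all mRNAs. CEBPD, which acts in the acute phase response, rose most (log2 1.92 ± 0.08, adjusted p = 2.81e-07), and FOXK1, with uneven nonirradiated samples (50.6 ± 33.5 CPM, SD), fell most (-2.26 ± 0.42, adjusted p = 9.70e-04). FOXN3 (-1.40 ± 0.10) and FOXP1 (-0.82 ± 0.07) fell and FOXK2 (0.48 ± 0.10) rose among the most abundant relatives. Of 34 other liver transcription factors 16 were higher and 13 lower (median 0.16). NR0B2 (SHP), the repressor induced by NR1H4, rose most (1.89 ± 0.07, adjusted p = 2.55e-07) and NFIB fell most (-2.02 ± 0.20, adjusted p = 1.55e-05). The most abundant were HLF (-1.11 ± 0.08), XBP1 of the unfolded protein response (1.47 ± 0.10) and SREBF2 of cholesterol synthesis (0.21 ± 0.07). Of 26 broadly expressed transcription factors 10 were higher and 7 lower (median 0.10), from REST (-1.45 ± 0.10), the repressor of neuronal genes, to ATF4 (1.68 ± 0.14), of the stress response, with NFE2L1 at 0.40 ± 0.07 and SP3 at -0.49 ± 0.09. With library sizes alone the higher and lower calls were 2 and 19, 2 and 29, and 2 and 22 in these 3 lists. In HEK293 the counts were 4 higher and 9 lower of 23 relatives, 4 and 11 of 29 other liver factors (7 higher with the replicate block), and 5 and 10 of 26 broad factors. There 24.2% of all genes tested were called higher and 26.4% lower (27.9% and 25.8% of mRNAs), and 32.7% higher with the block.

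For each of the 8 genes the 2 protein-coding genes with the most similar pattern over the 12 human samples were found, by the root mean square (RMS) difference of mean-centred log2(scaled CPM + 0.5) among 13734 genes. CEBPA had the closest, MRGBP (RMS 0.06) and TAP1 (0.08), followed by FOXA1 with TET1 (0.12) and KDELR2 (0.13). HNF4A was nearest to SLC17A9 (0.16) and ANPEP (0.32), NR5A2 to SPEF2 (0.18) and ARHGAP19-SLIT1 (0.19), and FOXA3 to VWA1 (0.19) and HAAO (0.21). NR1H4 was nearest to AKR1C2 (0.20) and FST (0.28), FOXA2 to SPAG4 (0.22) and DGAT2 (0.23), and ONECUT1 to JAK3 (0.22) and NPIPA9 (0.24). None of the 8 was among the 2 nearest genes of another.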

How the data were processed

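RNA of 24 samples was measured, 12 of them human. The deposited values are raw counts per gene: per the labels, the methods and the file headers, the authors removed ribosomal RNA, mapped reads to hg38 with TopHat2 2.1.1 and counted them over GENCODE 28 exons (M17 for mouse) with featureCounts 1.5.3 (HepG2) or 1.6.1 (other cells). Reads over several genes were counted for each, and no option for strand was named. The labels name a stranded TruSeq kit and the methods an unstranded one, and antisense reads were treated as not separable. The other column of the files, gene length, is used for RPKM.

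From these counts, genes with a mean of at least 0.5 CPM in nonirradiated samples were tested with the quasi-likelihood test of edgeR 4.0.16 (R 4.3.3), TMM scaling and Benjamini-Hochberg adjustment over all genes tested; calls have an adjusted p under 0.05. An SE is the size of the log2 value over the square root of F. CPM and RPKM of single libraries use library totals, and "scaled CPM" TMM. Symbols came from GENCODE 44 by gene ID (99.0% of human genes matched). The code was tested on simulated data. Single ratios were compared by exact permutation. Alternatives were DESeq2 1.42.0 (size factors, test), library sizes alone, other filters, a replicate block, and leaving out each sample. Python 3.11.15, numpy 2.4.6, scipy 1.17.1, pandas 2.3.3 and matplotlib 3.10.9 did the rest.

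Same-numbered HEK293 samples deviated together (correlations of 0.589, 0.302 and 0.391), so their numbers were taken to pair them. Replicates 2 and 3 also correlated across numbers (0.236 and 0.22), so these values mainly set replicate 1 apart. The pairing comes from the data, since the labels state no shared batch. The 8 genes and the gene lists were chosen with earlier results of these data known. Named genes are the 8, genes sharing exon bases with them, the 3 most abundant and the lowest and highest in log2 of each list in HepG2, and the 2 nearest in pattern to each of the 8; others are marked as chosen after their values were seen. Some items that this rule would name are not reported here.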

Additional observations from a re-analysis of the deposited data

Results flagged for a closer look

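The mouse cells of the series, the neuroblastoma line Neuro2a and neurons cultured from the hippocampus of mouse embryos (day 16.5), enter no comparison above. There 3 of the 8 orthologues were present above the limit that a count of 0 allows, taken as 3 counts in the deepest nonirradiated library. This limit was 0.333 CPM in Neuro2a and 0.327 CPM in the culture. Cebpa had 71, 68 and 73 counts in the nonirradiated hippocampal cultures, or 8.57 ± 0.56 CPM (SD, n = 3), and 51, 55 and 57 in the irradiated ones, while all 6 Neuro2a samples had 0. Nr1h4 had 17, 22 and 24 counts in nonirradiated Neuro2a (2.55 ± 0.621 CPM) and 9, 10 and 9 after UV. Foxa1 had 19, 6 and 6 counts in nonirradiated Neuro2a (1.23 ± 0.865 CPM) and 0, 1 and 3 after UV, so that 1 library held most of its reads. The remaining 5 orthologues had at most 2 counts in any mouse sample.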

How the results depend on the processing

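Of the alternative values for the 8 genes, 311 kept their direction and their side of the threshold and 13 turned sign. Another 11 kept their sign but lost a call, and 4 kept it and gained one. Some of the 13 also lost or gained a call. In HepG2 with library sizes alone FOXA2 lost its call and HNF4A gained one (edgeR adjusted p = 0.226 and 2.82e-07). The cause was not tested. With library sizes alone, the HepG2 calls became 5 lower and 1 higher of the 8 (15830 and 1734 of all genes), with FOXA2 at -0.12, CEBPA at -0.10, NR1H4 at -0.68 and HNF4A at -1.24; those of HEK293 became 2 lower and 0 higher (11168 and 1557), with FOXA2 at -0.26; and the difference between the lines turned to -0.14 for FOXA3 and -0.22 for CEBPA (2930 genes lower and 120 higher). HNF4A in HepG2 also turned with DESeq2's size factors and test (both -0.005), with at least 10 counts in every sample (-0.21) and without nonirradiated replicate 1 (-0.008, adjusted p = 0.827). With at least 10 counts in every sample, NR5A2 joined the lower calls in HEK293 (2 in all), 4 of the 8 were called higher in nonirradiated HepG2 than HEK293 (of all genes, 5468 higher and 5384 lower), HNF4A, NR1H4 and ONECUT1 having been removed by construction, and the interaction gave 522 genes lower and 268 higher. Without a filter the interaction gave 1244 lower and 335 higher, with 1 of the 8 among the lower, NR1H4, from 2 HEK293 counts before and 14 after UV. DESeq2 gave 899 higher.

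The replicate block gave 2 lower calls in HEK293 with NR5A2 added (of all genes, 7228 lower and 6688 higher in place of 5405 and 4962), and 1443 lower and 2092 higher genes in the interaction, and changed no other call among the 8. In HepG2 the same-numbered samples correlated at 0.036, 0.026 and -0.01, which gives no sign of pairing. The block was nonetheless fitted by number in HepG2 too, both alone and within the interaction. Leaving out 1 sample each, lower calls in HEK293 were 0 to 1 (4124 to 5343 of all genes), lower calls in HepG2 were 2 to 3 (7609 to 8789), and the interaction gave 500 to 895 genes lower and 236 to 1034 higher; HNF4A in HepG2 ranged from -0.008 to 0.074; the interaction of FOXA1 ranged from -0.198 to 0.088, above 0 without HepG2 nonirradiated replicate 1, and that of NR5A2 from -0.422 to 0.002, above 0 without HepG2 nonirradiated replicate 3. The HEK293 libraries are shallower, and FOXA2, FOXA3 and NR5A2 had 10 to 121 counts in each nonirradiated one, which limits what could be detected there.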

Other observations

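Genes that the 8 factors are known to regulate were also present among the mRNAs. Of 39 secreted liver proteins tested in HepG2, 37 were higher upon UV irradiation and 2 lower (17 and 10 with library sizes alone), with a median log2 of 1.46 against 0.17 for all mRNAs. Among all genes tested in HepG2, 38.1% were called higher and 40.7% lower (45.9% and 34.2% of mRNAs). APOC1, an apolipoprotein, rose most (log2 2.64 ± 0.09 SE, edgeR adjusted p = 2.55e-07). ALB (0.98 ± 0.15, adjusted p = 2.41e-04) and AFP (0.70 ± 0.14, adjusted p = 0.00125) rose as well. APOB, the large structural protein of lipoproteins and the most abundant mRNA on the list (25800 ± 1390 CPM, SD, n = 3, nonirradiated), fell (-1.20 ± 0.12, adjusted p = 1.50e-05). 

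Of 17 genes of bile acid synthesis and transport, 10 were higher and 4 lower (0 and 12 with library sizes alone), from SLC10A1, the hepatocyte bile acid importer (-2.66 ± 0.30, adjusted p = 4.07e-05, at 2.24 ± 0.119 nonirradiated CPM), to SLC51B, a subunit of a bile acid exporter (1.54 ± 0.17, adjusted p = 3.13e-05). CYP27A1 (1.40 ± 0.07) and FGFR4 (1.20 ± 0.06) rose and ABCC2 (-0.23 ± 0.07) fell. Of 12 liver metabolic enzymes, 9 were higher and 3 lower (2 and 7 with library sizes alone), from TAT (-0.66 ± 0.13) to HPD (1.88 ± 0.10), both of tyrosine breakdown. GLUL (0.55 ± 0.11) and PCK2 (1.27 ± 0.07) rose. Beside these 2 lists stand the shares over all HepG2 mRNAs, of which 45.9% were called higher and 34.2% lower. Of 7 RNAs that the study itself describes under UV irradiation, 5 were lower and 2 higher in both lines, among them NEAT1 (HepG2 log2 -4.17 ± 0.37), RN7SK (2.58 ± 0.16) and GAPDH (2.03 ± 0.11); this list was chosen on these samples and is no independent evidence of direction.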
